A study of Homo sapiens with 4 samples.

Results

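The genes described here encode the kinetochore, the spindle assembly checkpoint, the chromosomal passenger complex, the spindle kinases and the machinery of anaphase. They were chosen by symbol or name series. A list gave 23 genes, and protein-coding genes with names of the CENP (21), ANAPC (10) and SKA (3) series were added. This gave 57 of the 16371 genes in the deposited table, of which 13456 were protein-coding. The 23 listed symbols were proposed with earlier results of these libraries known.

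A kinetochore is the protein assembly on each centromere that binds spindle microtubules. Its inner layer sits on nucleosomes that contain the histone variant CENP-A, and its outer layer holds the microtubule-binding NDC80 complex. Kinetochores without microtubules keep the spindle assembly checkpoint active, which holds the anaphase-promoting complex (APC/C) in check through its activator CDC20. Once all are attached, the APC/C marks securin and cyclin B for destruction, separase is set free and the sister chromatids part. Many of these genes are transcribed mainly in G2 and M phase, and a common route to this is a promoter element called the CHR (cell cycle genes homology region), which is bound by the LIN54 subunit of the MuvB complex.

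The libraries came from clusters of A549, an established human lung adenocarcinoma cell line. In 1 group the cells carried a short hairpin construct against DUSP23, a small dual-specificity phosphatase, with the genotype given as DUSP23 knockdown (shDUSP23, 2 libraries), and in the other a control construct, with the genotype given as wild type (shMock, 2 libraries). The sample names end in SUS, which the labels do not explain, and they state no number of hairpins or clones and no batch. Nor do they say that libraries 1 and 2 of a group are separate cultures. The p-values therefore reflect the spread among these 4 libraries alone, which may be technical. In bulk RNA, fewer dividing cells and less RNA of a gene per cell cannot be told apart, and this applies to every result below.

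Values are FPKM (fragments per kilobase, scaled to sequencing depth), added up over a gene's transcripts, and a pair of values is always library 1 and then library 2. Steps of 1 fragment in single-transcript genes gave totals of 26994700 and 42242800 fragments for shDUSP23 and 21280700 and 25232900 for shMock. DUSP23 had 1.71 and 2.71 FPKM in shDUSP23, against 30 and 35.9 FPKM in shMock (log2 fold change -3.64, SE 0.22, adjusted p = 3.12e-05), so the targeted gene was low where its label says. Log2 values of all tested genes correlated at 0.969 between the shDUSP23 libraries and 0.986 between the shMock libraries, and at 0.884 to 0.91 across the groups. The epithelial markers KRT8, KRT18, KRT19, EPCAM and CDH1 all had values, with summed levels of 1634.14 and 1715.56 FPKM in shDUSP23 and 2153.88 and 2110.95 FPKM in shMock. Of 6 markers of alveolar type II and lung epithelium 2 had values (summed 12.07 and 8.32 FPKM in shDUSP23, 6.41 and 4.62 FPKM in shMock), of 7 fibroblast markers 4 (4.59 and 5.01 FPKM, against 3.37 and 2.73 FPKM in shMock), of 5 leukocyte markers 2 (8.17 and 6.39 FPKM, against 6.63 and 10.21 FPKM in shMock) and of 4 endothelial markers 0. Within these sums single markers differed: CDH1 had 6.2 and 8.14 FPKM in shDUSP23, against 22.4 and 21.5 FPKM in shMock, CD14 had 0.983 and 0.995 FPKM, against 4.68 and 8.01 FPKM in shMock, and ITGAM had 7.19 and 5.40 FPKM, against 1.95 and 2.21 FPKM in shMock. The part of these differences in the results below was not tested.

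Most of the 57 genes were lower in the shDUSP23 clusters, and every member placed in the outer kinetochore and corona, the checkpoint, the passenger complex or the spindle group was called lower. All 57 had a mean of at least 1 FPKM and were tested with limma on log2(FPKM + 0.5), and calls were made at a two-sided p under 0.05 after Benjamini-Hochberg adjustment across the 13691 tested genes. In shDUSP23, 45 of the 57 were called lower, against a background of 22.2% of all tested genes. Another 2 were called higher, against 23.1% of all tested genes. Since 23 of the 57 were listed with earlier results known, these counts describe the set and do not test it. Groups of name-series genes alone had 10 of 17 (inner kinetochore), 6 of 10 (APC/C) and 2 of 2 (other CENP names) called lower. A fall of at least 2-fold was called in 32 members (background 8.91%), and a fall of at least 4-fold in 10 (background 1.23%). The groups did not overlap, with the shDUSP23 libraries as the lower pair, in 49 members (background 36.2%), and with them as the higher pair in 2 (background 39.3%). The median log2 fold change was -1.14 over the 57 genes and 0.03 over all tested genes. Fold changes on this scale understate the change of genes with low values. Summed over the 57 genes, the level was 604.0 and 599.0 FPKM in shDUSP23, against 1120.8 and 1154.8 FPKM in shMock.

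Total FPKM per library was 438603.8 and 446982.3 in shDUSP23, against 540162.9 and 578360.7 in shMock, so the libraries were also scaled to equal sums. The scaling raised all values while the pseudocount and the filter stayed fixed, so both weighed less, and 14951 genes were tested. On that scale the median over all tested genes was 0.37 and 76.2% of the called genes were higher, against 51% without scaling. With equal sums 36 of the 57 genes were called lower (11.3% of all genes tested on that scale) and 2 higher, and their median was -0.84, a difference of -1.20 from the median of all genes on that scale. Without shMock 1, 32 of the 57 were called lower (14% of all genes in that fit), and without shMock 2, 35 were (12.7% of all genes).

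**Figure D1:**
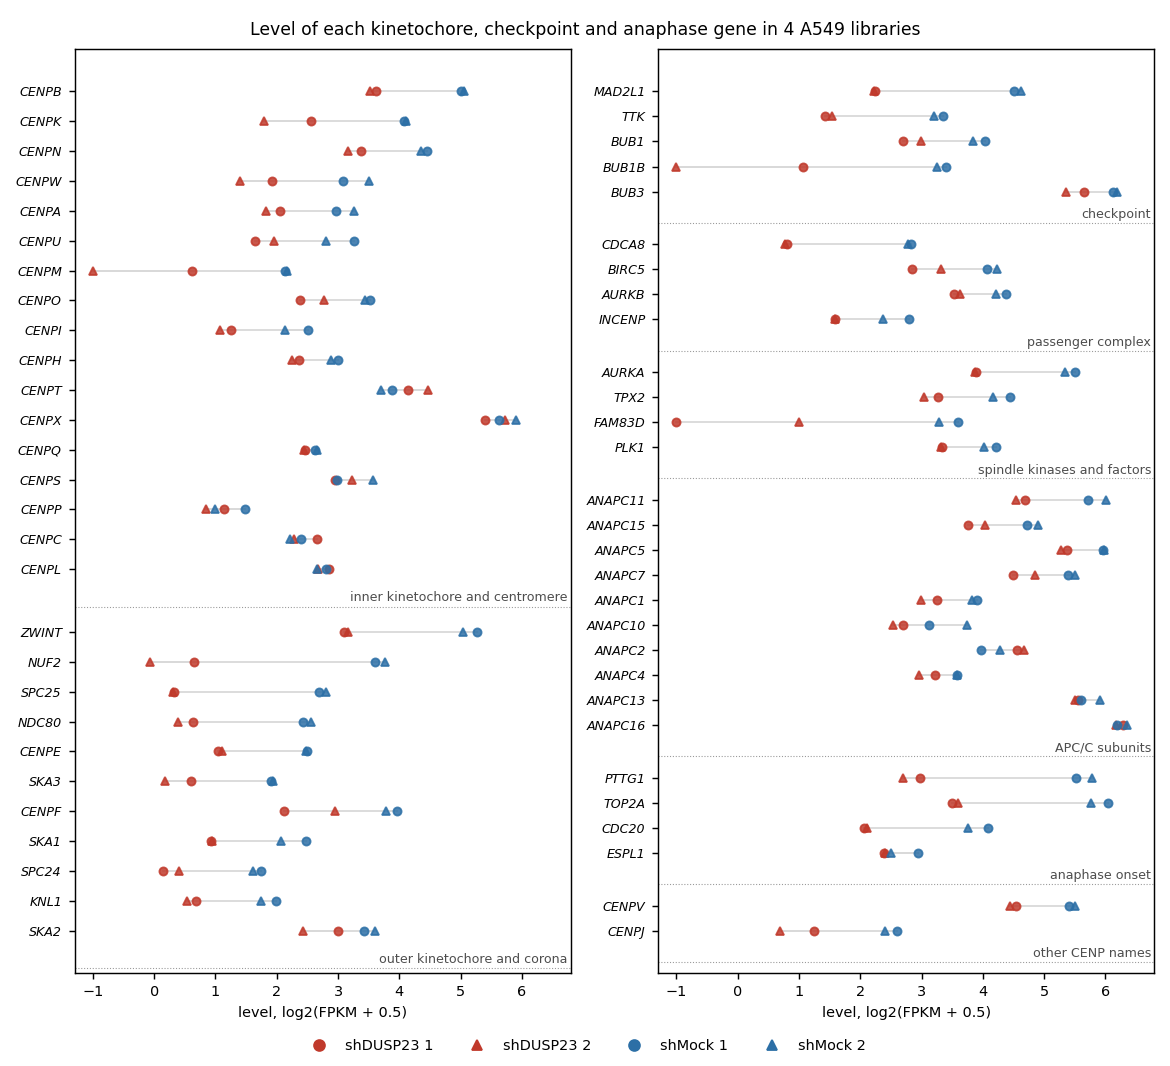
Level of each of the 57 genes on the log2(FPKM + 0.5) scale in the 4 libraries, by role, with red for shDUSP23, blue for shMock, circles for library 1 and triangles for library 2. In 49 genes both red points lie left of both blue points, and the 3 points at the left edge (CENPM, BUB1B and FAM83D) are values listed at 0.

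Promoter sequences are shown first, as a description, because the CHR is a common promoter element of genes transcribed in G2 and M phase. Whether it has a part in the fall was not tested. Of the 57 genes 46 had a RefSeq promoter (GRCh38.p14, 250 bases before to 50 bases after a transcript start). The CHR letters TTTGAA and the NF-Y box letters CCAAT were searched on both strands, and the 2 motifs can share at most 1 base. The first 4 stretches below are those of the members with the largest falls among called members that had no library at 0 and held CHR letters within 100 bases of the start, and the next 4 in that order were added after their values were seen. Each is 30 bases, 5′ to 3′ on the strand named, and the capitals mark the CHR letters.
NUF2, chr1:163321952-163321981, plus strand: ccagtaggaggcggcaagTTTGAAaagtga
SPC25, chr2:168890422-168890451, minus strand: ggcgggaagtgcactaggTTTGAAatcgga
MAD2L1, chr4:120066813-120066842, minus strand: acgtgctgcgtcgttactTTTGAAacgctt
ZWINT, chr10:56361267-56361296, plus strand: cacaatccctaagattacTTTGAAgtcaca
CDCA8, chr1:37692475-37692504, plus strand: cagcctgtgactgtggagTTTGAAttgggt
NDC80, chr18:2571548-2571577, minus strand: ccgccaaagccgttcgaaTTTGAAattctc
CDC20, chr1:43358898-43358927, plus strand: cggttgcgacggttggatTTTGAAggagcc
SKA3, chr13:21176532-21176561, plus strand: acagcctcccgccactagTTTGAAtctcgg
The letters lie at -3 bases from the transcript start in SPC25, NDC80 and SKA3, at -17 in ZWINT, at -23 in CDCA8, at -65 in CDC20, at 17 in NUF2 and at 25 in MAD2L1. In CDCA8 the last base of the CHR letters is shared with an NF-Y box that reads CCAAT on the other strand.

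CHR letters within 100 bases of the start were found in 20 of the 46 genes (43.5%), in 8.5% of the 27305 genes with a promoter in the RefSeq table and in 5.9% of the 10053 tested genes with one. Among members called lower they were found in 18 of 35 (51.4%), and among the other members in 2 of 11 (18.2%), which were CENPC and ESPL1. PTTG1 and TOP2A, with log2 fold changes of -2.82 and -2.35, had no CHR letters that close to the start. APC/C subunits held them in 2 of 10 promoters (20.0%, ANAPC1 and ANAPC10) and the other members in 18 of 36 (50%). NF-Y box letters stood anywhere in the 300 bases in 27 of 46 members (58.7%) and in 43.2% of tested genes, and at least 2 boxes in 37.0% of members and 16.3% of tested genes. CHR letters within 100 bases of the start together with an NF-Y box anywhere in the 300 bases were found in 12 of 46 members (26.1%). The same held for 0 of 10 APC/C promoters and 3.5% of tested genes. A match of letters describes the window and shows no binding, and the set has not been tested against the fold changes.

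**Figure D2:**
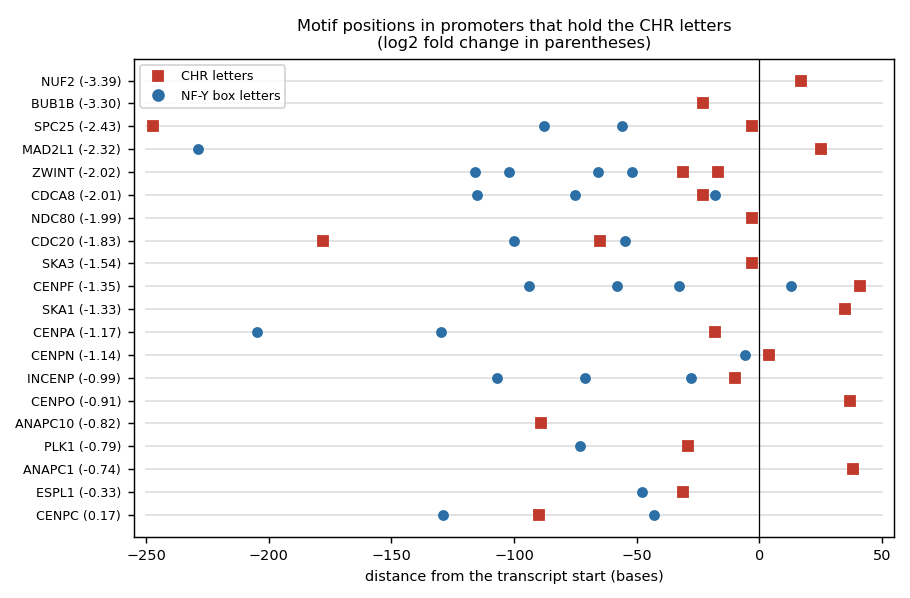
Position of CHR letters (red squares) and NF-Y box letters (blue circles) in bases from the transcript start, for the 20 members with CHR letters within 100 bases of the start, ordered by log2 fold change (shDUSP23 minus shMock, in parentheses). The fold changes run from -3.39 for NUF2 to 0.17 for CENPC.

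Of the inner kinetochore and centromere genes 10 of 17 fell, 1 was called higher and 6 were not called, with a median log2 fold change of -0.91. CENPB (ENSG00000125817, chromosome 20, 3783851 to 3786740), which binds a short box in centromeric satellite DNA, had 11.8 and 11 FPKM in shDUSP23, against 31.6 and 32.7 FPKM in shMock. Its log2 fold change was -1.46 (SE 0.14, adjusted p = 1.47e-04), a 2.83-fold fall of the mean. CENPK, a subunit of the CENP-HIKM complex that bridges to CENP-C, had 5.42 and 2.96 FPKM in shDUSP23, against 16.4 and 16.7 FPKM in shMock (log2 fold change -1.91, SE 0.25, adjusted p = 6.27e-04). CENPN, which reads CENP-A nucleosomes, had 9.88 and 8.42 FPKM in shDUSP23, against 21.5 and 20.0 FPKM in shMock (log2 fold change -1.14, SE 0.16, adjusted p = 7.57e-04). In these 3 genes the groups stood well apart, and the shDUSP23 libraries of CENPK differed most from each other. CENPA itself, the centromeric histone, had 3.66 and 3.05 FPKM in shDUSP23 and 7.29 and 9.09 FPKM in shMock (log2 fold change -1.17, and -2.02 with protein-coding transcripts alone). CENPW, CENPU, CENPI, CENPO and CENPH also fell, with log2 fold changes of -1.63, -1.24, -1.16, -0.91 and -0.64.

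CENPM, another subunit of CENP-HIKM, was listed at 0 in 1 library. It had 1.03 and 0 FPKM in shDUSP23, against 3.91 and 4.01 FPKM in shMock, which correspond to 26.8 and 0 fragments, against 80.4 and 97.8 (log2 fold change -2.35, SE 0.49, adjusted p = 0.00523). Without shDUSP23 2 the log2 fold change was -1.55, without shDUSP23 1 it was -3.16, and with a pseudocount of 0.1 FPKM -3.60. CENPM lost its call without shMock 1 or shMock 2 (adjusted p = 0.0529 and 0.0549). Other calls that ended when 1 library was left out were CENPO and CENPH without shMock 1 (adjusted p = 0.0627 and 0.162) or shMock 2 (0.0502 and 0.118), CENPH also without shDUSP23 2 (0.0503), CENPU and CENPI without shMock 1 (0.06 and 0.0993) and CENPA without shMock 2 (0.0511). CENPO with protein-coding transcripts alone was at -0.34 (adjusted p = 0.287). CENPH was at -0.34 with equal sums (adjusted p = 0.229) and at -0.26 once GC content and length were corrected for (0.252).

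CENPT, which links centromeric chromatin to the NDC80 complex, went the other way, with 17.1 and 21.6 FPKM in shDUSP23 and 14.2 and 12.5 FPKM in shMock (log2 fold change 0.51, SE 0.17, adjusted p = 0.0355). Most of this level was noncoding: protein-coding transcripts made up 13.5% and 34.5% of it in shDUSP23, against 18.3% and 15.3% in shMock, and the leading transcript CENPT-218 is a retained-intron form. Its exons overlap those of NUTF2 and THAP11 on the opposite strand, and the sources used here do not say whether the counting used strand. The CENPT call was lost in 8 of 17 alternative settings, among them protein-coding transcripts alone (log2 fold change 0.79, adjusted p = 0.194), correction for GC content and length (0.26, adjusted p = 0.183) and leaving out shDUSP23 2 (0.35, adjusted p = 0.145), shMock 1 (0.60, adjusted p = 0.0862) or shMock 2 (0.43, adjusted p = 0.199).

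The 6 inner kinetochore genes that were not called had overlapping or close values. CENPC, the other link from CENP-A chromatin to the outer layer, had 5.84 and 4.37 FPKM in shDUSP23 and 4.75 and 4.16 FPKM in shMock. Protein-coding transcripts made up 1.49% and 0% of the CENPC level in shDUSP23, against 6.53% and 5.58% in shMock. With protein-coding transcripts alone CENPC lay under the expression filter and was not tested. CENPL, the partner of CENP-N, had 6.7 and 5.86 FPKM in shDUSP23 and 6.48 and 5.8 FPKM in shMock. CENPX and CENPS, histone-fold proteins that also serve the Fanconi anaemia pathway of DNA repair, had 41.5 and 52.4 FPKM (CENPX) and 7.21 and 8.85 FPKM (CENPS) in shDUSP23, against 49.0 and 59.2 FPKM and 7.45 and 11.4 FPKM in shMock. In these 4 genes the groups overlapped. CENPP and CENPQ, subunits of the CENP-O complex, had 1.7 and 1.3 FPKM (CENPP) and 5 and 4.95 FPKM (CENPQ) in shDUSP23, against 2.28 and 1.49 FPKM and 5.67 and 5.8 FPKM in shMock. CENPP overlapped between the groups, and CENPQ lay lower in both shDUSP23 libraries by 0.19 on the log2 scale (log2 fold change -0.19, adjusted p = 0.453).

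All 11 members in the outer kinetochore and corona fell, with a median log2 fold change of -1.41 and a median level of 1.02 FPKM in shDUSP23, against 5.16 FPKM in shMock. ZWINT (ENSG00000122952, chromosome 10, 56357227 to 56361273), which binds KNL1 and helps recruit the corona, had 8.09 and 8.46 FPKM in shDUSP23, against 38.1 and 32.4 FPKM in shMock. Its log2 fold change was -2.02 (SE 0.15, adjusted p = 5.37e-05), a 4.26-fold fall of the mean. The 4 subunits of the NDC80 complex, which grips the microtubule, all fell. NUF2 (ENSG00000143228, chromosome 1, 163321935 to 163355764) had 1.07 and 0.456 FPKM in shDUSP23, against 11.6 and 13.1 FPKM in shMock (log2 fold change -3.39, SE 0.28, adjusted p = 9.61e-05). SPC25 (ENSG00000152253, chromosome 2, 168834132 to 168890430) had 0.745 and 0.741 FPKM in shDUSP23, against 5.94 and 6.51 FPKM in shMock (log2 fold change -2.43, SE 0.25, adjusted p = 2.12e-04, and -1.84 with protein-coding transcripts alone). NDC80 had 1.05 and 0.813 FPKM in shDUSP23, against 4.91 and 5.4 FPKM in shMock (log2 fold change -1.99). SPC24 had 0.608 and 0.828 FPKM in shDUSP23, against 2.84 and 2.55 FPKM in shMock (log2 fold change -1.40). The complex thus stood below 1.1 FPKM in every subunit and shDUSP23 library, while the 4 subunits ranged between 2.55 and 13.1 FPKM in shMock.

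KNL1, the scaffold that docks the BUB proteins, had 1.1 and 0.95 FPKM in shDUSP23, against 3.48 and 2.86 FPKM in shMock (log2 fold change -1.26). The Ska complex, which follows the ends of shrinking microtubules, fell in its 3 subunits SKA1, SKA2 and SKA3, with log2 fold changes of -1.33, -0.79 and -1.54. CENPE, a kinesin of the corona, had 1.55 and 1.66 FPKM in shDUSP23, against 5.11 and 5.07 FPKM in shMock (log2 fold change -1.41). CENPF, a large coiled-coil protein of the corona, had 3.82 and 7.19 FPKM in shDUSP23, against 15.1 and 13.3 FPKM in shMock (log2 fold change -1.35). CENPE libraries of a group were nearly equal, whereas the shDUSP23 libraries of CENPF differed from each other the most in this layer by SD (2.38 FPKM). Leaving out shMock 1 ended the calls of SKA1, SKA2, SKA3, SPC24 and KNL1 (adjusted p = 0.0758, 0.073, 0.0522, 0.0877 and 0.101), leaving out shMock 2 those of SKA2, SKA3, SPC24 and KNL1 (0.139, 0.0588, 0.0695 and 0.0588), and leaving out shDUSP23 2 that of SKA2 (-0.51, adjusted p = 0.0561). SKA2 was at -0.49 with equal sums (adjusted p = 0.119), at -0.52 with protein-coding transcripts alone (0.11) and at -0.36 once GC content and length were corrected for (0.164).

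All 5 members in the checkpoint group fell, with a median log2 fold change of -1.80. Of 5 further genes listed with the checkpoint, only HASPIN fell, and their median was 0.10. MAD2L1 (ENSG00000164109, chromosome 4, 120055623 to 120066848), the MAD2 protein that captures CDC20, had 4.25 and 4.15 FPKM in shDUSP23, against 22.2 and 24 FPKM in shMock (log2 fold change -2.32, SE 0.16, adjusted p = 4.23e-05). TTK, the MPS1 kinase that starts checkpoint signalling, had 2.18 and 2.41 FPKM in shDUSP23, against 9.72 and 8.76 FPKM in shMock (log2 fold change -1.80, SE 0.21, adjusted p = 3.18e-04). BUB1, a kinase that marks the inner centromere for the passenger complex, had 5.98 and 7.46 FPKM in shDUSP23, against 15.9 and 13.8 FPKM in shMock (log2 fold change -1.10, SE 0.18, adjusted p = 0.00176). In these 3 genes the libraries of a group lay close together and the groups far apart. BUB3, the partner of both BUB kinases, was the most abundant and fell least, with 49.7 and 40.6 FPKM in shDUSP23, against 68.9 and 72.9 FPKM in shMock (log2 fold change -0.65). With equal sums BUB3 lost its call (log2 fold change -0.32, adjusted p = 0.0961).

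BUB1B, the BUBR1 protein that joins MAD2 and CDC20 in the mitotic checkpoint complex, had 1.6 and 0 FPKM in shDUSP23, against 10.1 and 8.98 FPKM in shMock (log2 fold change -3.30, SE 0.56, adjusted p = 0.002). These values correspond to 160.4 and 0 fragments in shDUSP23, against 804.3 and 844.3 in shMock. The shDUSP23 2 library held the most fragments, and 3 fragments there would give 0.0191 FPKM. Without shDUSP23 2 the log2 fold change of BUB1B was -2.26, and without shDUSP23 1 it was -4.33, with the call kept in both, while pseudocounts of 0.1 and 1 FPKM gave -4.55 and -2.71. BUB1B has 1 listed transcript, as do CENPM and FAM83D, the other members listed at 0. Among single-transcript genes with at least 1 FPKM in the other 3 libraries, 42 of 2226 (1.89%) were listed at 0 in shDUSP23 2 and 11 of 2188 (0.5%) in shDUSP23 1, against 7 of 2178 (0.32%) in shMock 1 and 4 of 2176 (0.18%) in shMock 2. Whether these zeros are failed estimates was not tested.

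The 4 members of the chromosomal passenger complex, which corrects faulty attachments, all fell, with a median log2 fold change of -1.03. CDCA8 (ENSG00000134690, chromosome 1, 37692481 to 37709719), which encodes borealin, had 1.25 and 1.21 FPKM in shDUSP23, against 6.6 and 6.33 FPKM in shMock (log2 fold change -2.01, SE 0.23, adjusted p = 3.51e-04). BIRC5, which encodes survivin, had 6.69 and 9.45 FPKM in shDUSP23, against 16.3 and 18.3 FPKM in shMock (log2 fold change -1.07, SE 0.19, adjusted p = 0.00271). AURKB, the kinase of the complex, had 11.1 and 11.9 FPKM in shDUSP23, against 20.4 and 18 FPKM in shMock (log2 fold change -0.71, SE 0.15, adjusted p = 0.00558). The targeting subunit borealin thus stood 5.26-fold lower in shDUSP23 by the means and the kinase 1.67-fold lower, a difference between 2 genes that was not itself tested. INCENP, the scaffold, had 2.52 and 2.5 FPKM in shDUSP23, against 6.42 and 4.69 FPKM in shMock (log2 fold change -0.99). AURKB and INCENP lost their calls without shMock 1 (adjusted p = 0.0626 and 0.126) and with equal sums (0.0902 and 0.0512).

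Among the spindle kinases and spindle factors all 4 members fell, with a median log2 fold change of -1.35. AURKA, the kinase of spindle poles, had 14.3 and 14.1 FPKM in shDUSP23, against 44.9 and 40.1 FPKM in shMock (log2 fold change -1.55, SE 0.13, adjusted p = 1.07e-04). TPX2, its activator on spindle microtubules, had 9.12 and 7.77 FPKM in shDUSP23, against 21.2 and 17.4 FPKM in shMock (log2 fold change -1.14, SE 0.17, adjusted p = 0.00111). FAM83D, which anchors proteins to the spindle, had 0 and 1.49 FPKM in shDUSP23, against 11.6 and 9.19 FPKM in shMock (log2 fold change -3.44, SE 0.55, adjusted p = 0.00146). The zero of FAM83D was in shDUSP23 1, unlike those of BUB1B and CENPM. Without that library its log2 fold change was -2.45, and without shDUSP23 2 it was -4.44, while pseudocounts of 0.1 and 1 FPKM gave -4.71 and -2.84. PLK1, the kinase of mitotic entry and kinetochore attachment, had 9.59 and 9.46 FPKM in shDUSP23, against 18 and 15.8 FPKM in shMock (log2 fold change -0.79, adjusted p = 0.00395). With equal sums PLK1 was not called (log2 fold change -0.48, adjusted p = 0.0551).

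**Figure D3:**
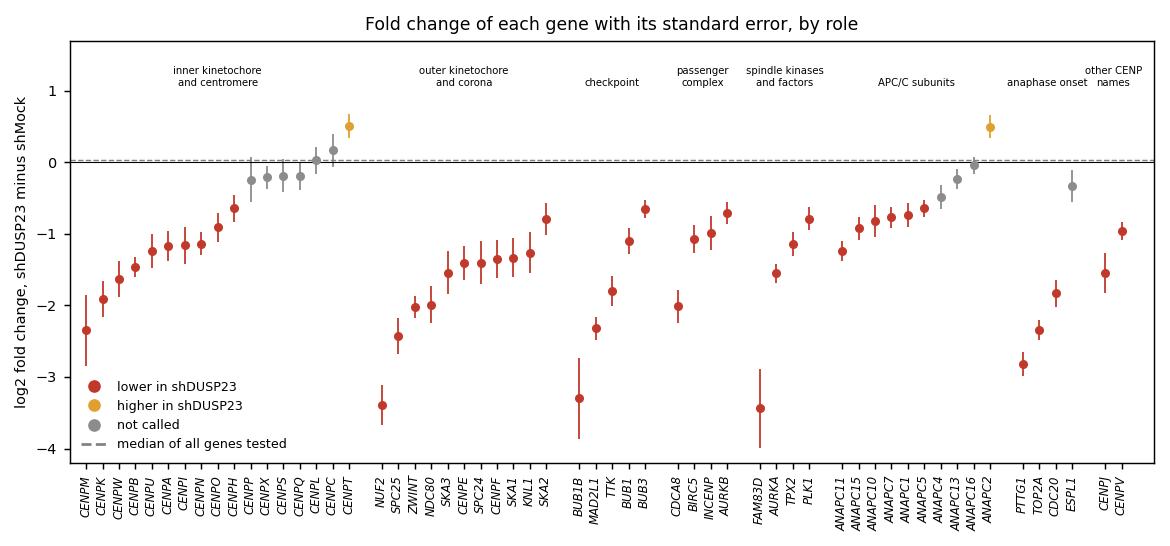
Log2 fold change (shDUSP23 minus shMock) of each gene with its standard error from limma, grouped by role, and the median of all tested genes (0.03) as a dashed line. All members in the outer kinetochore, checkpoint, passenger and spindle groups lie below -0.6, whereas the inner kinetochore and the APC/C also hold genes that were not called (grey) and 1 gene each that was called higher (orange).

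The 10 ANAPC subunits of the APC/C, the ubiquitin ligase that starts anaphase, were more abundant than the other groups and shifted less. Their median level was 24.1 FPKM in shDUSP23 and 35.3 FPKM in shMock, 6 fell, 1 was called higher and 3 were not called, with a median log2 fold change of -0.69. The other 47 members had 39 called lower and a median of -1.26, a contrast that was not tested. ANAPC11, the RING subunit that holds the E2 enzyme, had 25.4 and 22.9 FPKM in shDUSP23, against 52.0 and 63.6 FPKM in shMock (log2 fold change -1.24, SE 0.14, adjusted p = 3.26e-04). ANAPC15, a small subunit that promotes turnover of the checkpoint complex, had 13.0 and 15.9 FPKM in shDUSP23, against 25.9 and 29.3 FPKM in shMock (log2 fold change -0.92, SE 0.16, adjusted p = 0.00203). ANAPC5, a platform subunit, had 40.9 and 38.4 FPKM in shDUSP23, against 61.6 and 62.6 FPKM in shMock (log2 fold change -0.64, SE 0.12, adjusted p = 0.0028). ANAPC7, ANAPC1 and ANAPC10, which are a repeat-rich arm subunit, the main scaffold and a substrate-binding subunit, also fell, with log2 fold changes of -0.77, -0.74 and -0.82.

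ANAPC2, the cullin subunit that carries ANAPC11, went the other way, with 23.1 and 25.1 FPKM in shDUSP23 and 15.1 and 18.9 FPKM in shMock (log2 fold change 0.50, SE 0.16, adjusted p = 0.0301). The catalytic pair thus moved in opposite directions, and neither direction turned under any scaling tried, although the ANAPC2 call was lost in 7 of 17 alternative settings. Among these were correction for GC content and length (log2 fold change 0.23, adjusted p = 0.198), protein-coding transcripts alone (0.38, adjusted p = 0.149) and leaving out shDUSP23 2 (0.44, adjusted p = 0.0726) or shMock 1 (0.34, adjusted p = 0.201). ANAPC4, another platform subunit, had 8.81 and 7.31 FPKM in shDUSP23 and 11.4 and 11.4 FPKM in shMock, just past the threshold (log2 fold change -0.48, adjusted p = 0.0502). ANAPC4 was called lower in 7 of 17 alternative settings, among them median-ratio rescaling (adjusted p = 0.0328), quantile normalization (0.0364) and leaving out shDUSP23 1 (-0.61, adjusted p = 0.0223). The small subunit genes ANAPC13 and ANAPC16 had 46.5 and 45.1 FPKM (ANAPC13) and 77.8 and 71.5 FPKM (ANAPC16) in shDUSP23, against 48.3 and 60.0 FPKM and 72.2 and 81.6 FPKM in shMock. Neither was called, and the groups overlapped in ANAPC16.

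With equal sums 3 of the 10 APC/C subunits were called lower, with a median of -0.37, which stood at -0.74 relative to the median of all genes. ANAPC5, ANAPC1 and ANAPC10 lost their calls there (adjusted p = 0.0765, 0.0966 and 0.102), and ANAPC5 also lost it with protein-coding transcripts alone (-0.42, adjusted p = 0.0543). ANAPC1 lost it too without shMock 1 or shMock 2 (0.0715 and 0.0533) and ANAPC10 without shMock 2 (-0.50, adjusted p = 0.213). After correction for GC content and length, ANAPC10 was at -0.25 (adjusted p = 0.354), and ANAPC16 was higher in shDUSP23 (log2 fold change 0.30, adjusted p = 0.0456). ANAPC1 has near copies, the pseudogenes ANAPC1P1 and ANAPC1P2, so how reads were divided among these loci is unknown.

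Of the 4 genes of anaphase onset and chromatid separation 3 fell, with a median log2 fold change of -2.09. PTTG1, securin, had 7.36 and 5.96 FPKM in shDUSP23, against 45.2 and 54.8 FPKM in shMock (log2 fold change -2.82, SE 0.17, adjusted p = 3.12e-05). TOP2A, the topoisomerase that untangles sister chromatids, had 10.8 and 11.6 FPKM in shDUSP23, against 65.1 and 54.0 FPKM in shMock (log2 fold change -2.35, SE 0.14, adjusted p = 3.12e-05). CDC20 (ENSG00000117399, chromosome 1, 43358981 to 43363203), the APC/C activator held by the checkpoint, had 3.68 and 3.81 FPKM in shDUSP23, against 16.4 and 13.0 FPKM in shMock (log2 fold change -1.83, SE 0.19, adjusted p = 2.13e-04). A processed pseudogene, CDC20P1, had 0.44 and 0 FPKM in shDUSP23 and 1.0 and 0.79 FPKM in shMock. ESPL1, the protease separase that securin holds back, was not called, with 4.75 and 4.77 FPKM in shDUSP23 and 7.19 and 5.16 FPKM in shMock (log2 fold change -0.33, adjusted p = 0.255). By the means, the inhibitor securin stood 7.51-fold lower in shDUSP23 and its target separase 1.3-fold lower, a difference between 2 genes that was not itself tested. ESPL1 moved both ways with the processing: it was at 0.10 with protein-coding transcripts alone (adjusted p = 0.729), and it was called lower, at -0.77, once GC content and length were corrected for (adjusted p = 0.0162, and 0.0109 with the replicate block as well).

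CENPV and CENPJ carry CENP names and were grouped apart from the 2 kinetochore layers. CENPJ, which encodes the centriole protein CPAP, had 1.87 and 1.11 FPKM in shDUSP23, against 5.53 and 4.81 FPKM in shMock (log2 fold change -1.54, SE 0.28, adjusted p = 0.00271). CENPV, a protein of the spindle midzone, had 22.9 and 21.3 FPKM in shDUSP23, against 41.8 and 45.0 FPKM in shMock (log2 fold change -0.96, SE 0.13, adjusted p = 6.62e-04). Both fell, and both were led by transcripts annotated as targets of nonsense-mediated decay. With protein-coding transcripts alone the CENPV call was lost (log2 fold change -1.25, adjusted p = 0.0916).

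The deposited table gives a value per transcript, and the 57 genes had 215 listed transcripts: 136 protein-coding, 43 retained introns, 24 processed transcripts and 12 targets of nonsense-mediated decay. Protein-coding transcripts made up 69.5% and 71.8% of the summed level in shDUSP23, against 77.3% and 77.1% in shMock. Processed transcripts, which lack an open reading frame, made up 16.5% and 15.1% in shDUSP23, against 9.71% and 10.3% in shMock. The coding share was thus lower in both shDUSP23 libraries than in both shMock libraries, and the difference over 2 libraries a group was not tested. Much of the processed level came from ANAPC16, which was not called as a gene. ANAPC16-203 had 44.4 and 40.5 FPKM in shDUSP23 and 43.0 and 48.2 FPKM in shMock. ANAPC16-202 had 19.7 and 17.4 FPKM, against 16.0 and 17.0 FPKM in shMock. Such shares also shift when other genes fall, so they do not show a change of transcripts within genes. Transcripts at 0 numbered 38 and 53 in shDUSP23 and 5 and 11 in shMock. Over all 56389 listed transcripts, zeros were also more frequent in shDUSP23, with 4814 and 9946, against 2930 and 4334 in shMock. With protein-coding transcripts alone 41 of 56 tested members were called lower, against 23.2% of all genes in that fit. The sources used here do not say how fragments were assigned to transcripts, so the values per transcript below are a description.

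The leading transcript differed between the groups in 10 of 49 genes with at least 2 listed transcripts, namely ANAPC7, ANAPC11, ANAPC15, BUB1, CENPC, CENPE, CENPS, CENPX, NUF2 and ZWINT. The ZWINT coding transcripts differed among themselves. ZWINT-202 had 0 and 1.44 FPKM in shDUSP23, against 9.44 and 8.15 FPKM in shMock, and ZWINT-204 had 0 and 0 FPKM, against 3.78 and 5.14 FPKM in shMock. ZWINT-203 had 5.39 and 6.8 FPKM in shDUSP23 and 6.63 and 8.81 FPKM in shMock, with overlap between the groups. Most of the remaining ZWINT level in shDUSP23 was thus a single coding transcript, while NUF2-201 fell to 0.302 and 0 FPKM in shDUSP23, against 7.51 and 9.14 FPKM in shMock. ANAPC15-201 had 0 and 2.3 FPKM in shDUSP23, against 14.0 and 12.8 FPKM in shMock, while ANAPC15-217 had 2.63 and 12.2 FPKM in shDUSP23 and 6.41 and 7.26 FPKM in shMock. In CENPX, which was not called as a gene, CENPX-201 had 16.3 and 13.3 FPKM in shDUSP23 and 29.4 and 32.4 FPKM in shMock, and CENPX-202 had 16.0 and 29.6 FPKM in shDUSP23 and 14.3 and 17.3 FPKM in shMock. Behind similar CENPX sums, one coding transcript was thus lower in shDUSP23, and the other overlapped between the groups.

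Of 177 transcripts that averaged 1 FPKM or more in either group, 14 in 12 genes went against their gene by at least 0.5 on the log2 scale. In 11 of the 14 the groups did not overlap. Non-overlap is common with 2 libraries a group: of all tested genes 36.2% lay lower and 39.3% higher in shDUSP23 without overlap. The 14 were also picked by the size of their difference, so this count does not test their direction. Among these genes CENPX, ANAPC13 and CENPC were not called (log2 fold changes -0.21, -0.23 and 0.17), so their own direction is not established. BUB1-214, a nonsense-mediated decay form, had 2.27 and 3.26 FPKM in shDUSP23, against 0.547 and 0 FPKM in shMock, while the coding BUB1-201 had 1.79 and 1.48 FPKM in shDUSP23, against 8.51 and 9.53 FPKM in shMock. The fall of BUB1-201 (log2 difference -2.16) was larger than that of the gene sum (-1.10). The other coding transcript, BUB1-212, had 1.77 and 1.79 FPKM in shDUSP23 and 4.39 and 0.953 FPKM in shMock (log2 difference -0.23), with overlap between the groups. Coding BUB1 transcripts together had 3.56 and 3.27 FPKM in shDUSP23, against 12.9 and 10.5 FPKM in shMock. PLK1-208 had 4.26 and 3.13 FPKM in shDUSP23, against 2.1 and 0 FPKM in shMock. CENPO-202 had 4.21 and 6.36 FPKM in shDUSP23, against 3.56 and 2.36 FPKM in shMock, and in shDUSP23 it was all or nearly all of the CENPO level. The others without overlap were ANAPC5-209, ANAPC13-206, ANAPC15-209, AURKB-201, CENPN-209, CENPX-203, CENPX-205 and CENPX-211, with log2 differences between 0.74 and 1.20. AURKA-203, ANAPC7-204 and CENPC-205 overlapped between the groups. In 7 genes a transcript annotated as noncoding or as a decay target led in both groups. In MAD2L1, for example, the nonsense-mediated decay form MAD2L1-202 had 3.8 and 2.13 FPKM in shDUSP23, against 17.4 and 20.0 FPKM in shMock, and the coding MAD2L1-201 had 0.454 and 0.888 FPKM in shDUSP23, against 2.85 and 3.05 FPKM in shMock. Both MAD2L1 forms were lower in shDUSP23, and with protein-coding transcripts alone the gene was at -1.58.

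**Figure D4:**
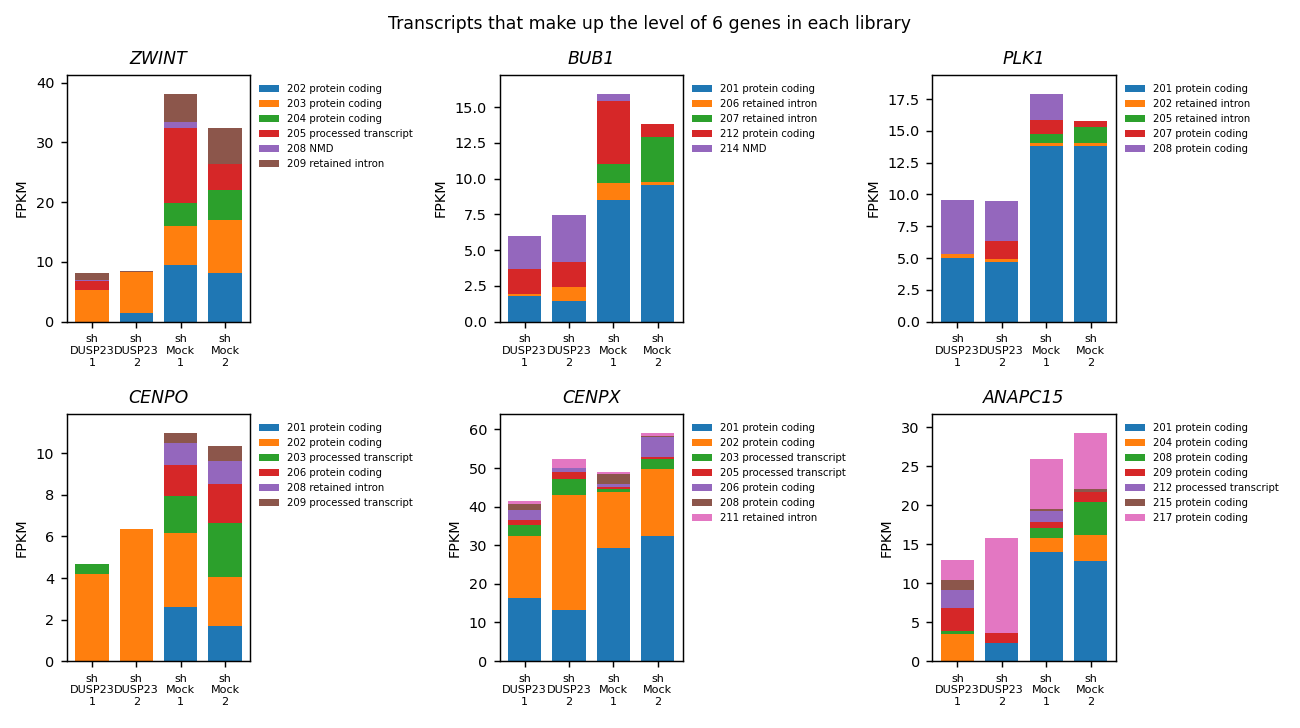
FPKM of each listed transcript, stacked, in the 4 libraries for 6 genes whose leading transcript differed or that held a transcript against the gene's direction, with the annotated type of each transcript in the legend (NMD, nonsense-mediated decay). In ZWINT transcript 203 is most of the bar in shDUSP23, in BUB1 transcript 214 is larger in shDUSP23 than in shMock, and in CENPX the sums are similar while transcript 201 is smaller in shDUSP23.

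Further mitosis genes were read from 7 lists of 77 genes, of which 76 were tested, 39 fell (51.3%, against 22.2% of all tested genes) and 3 were called higher (against 23.1% of all tested genes), with a median log2 fold change of -0.59. Of 14 other kinetochore and CENP-A loading genes 9 fell and 0 were called higher, with a median of -0.67. The 5 that were not called were MIS18A, MIS12, ZW10, BOD1 and PMF1 (log2 fold changes -0.58, -0.35, 0.12, 0.04 and 0.01). HJURP, the chaperone that deposits CENP-A, had 3.1 and 4.27 FPKM in shDUSP23, against 29.2 and 30.1 FPKM in shMock (log2 fold change -2.86, SE 0.19, adjusted p = 3.74e-05). ITGB3BP, which encodes CENP-R, fell by 1.84 on the log2 scale (adjusted p = 2.07e-04). The chaperone was thus 8.05-fold lower in shDUSP23 by the means, and CENPA 2.44-fold lower. Of 5 other genes listed with the checkpoint 1 fell (20%, near the 22.2% of all tested genes) and 0 were called higher, with a median of 0.10. TRIP13, MAD2L1BP and MAD1L1 were not called (log2 fold changes -0.47, 0.10 and 0.12). HASPIN, a kinase that helps place the passenger complex, was the one that fell (log2 fold change -1.03, adjusted p = 0.0413), and its call ended without shDUSP23 2, shMock 1 or shMock 2 (adjusted p = 0.0748, 0.336 and 0.0864), with equal sums (0.0945) and with a pseudocount of 0.1 FPKM (0.0505). CHAMP1, a zinc finger protein of kinetochore attachment, was not called (log2 fold change 0.44, adjusted p = 0.0655), but with equal sums it was called higher (0.78, adjusted p = 0.00961).

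Of the 8 APC/C subunits and partners outside the ANAPC names 4 fell and 1 was called higher, with a median of -0.50. UBE2C, the E2 enzyme that starts the ubiquitin chain, had 17.4 and 16.0 FPKM in shDUSP23, against 41.2 and 46.0 FPKM in shMock (log2 fold change -1.36, adjusted p = 1.74e-04). CDC23, a repeat subunit, fell by 1.08 on the log2 scale (adjusted p = 0.00102). FZR1, the CDH1 activator that replaces CDC20 after mitosis, had 11.8 and 17.6 FPKM in shDUSP23 and 8.67 and 6.67 FPKM in shMock (log2 fold change 0.88, SE 0.23, adjusted p = 0.0132). The 2 APC/C activators thus moved in opposite directions, though FZR1 lost its call without shMock 2 (0.70, adjusted p = 0.108) and with GC content and length corrected for (0.49, adjusted p = 0.0797). Of 15 cohesin genes 5 fell (33.3%) and 0 were called higher, with a median of -0.17. CDCA5, which encodes sororin, and ESCO2, the acetyltransferase that locks cohesin in S phase, fell by 1.69 and 2.23 on the log2 scale, while the ring subunits SMC1A, SMC3 and RAD21 were not called (log2 fold changes -0.25, -0.30 and -0.05). Condensin had 6 of 8 genes lower and 0 called higher, with a median of -0.88, and its core subunits SMC4 and SMC2 had log2 fold changes of -1.27 and -0.85, with SMC4 at -2.14 when protein-coding transcripts alone were counted.

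Of 12 mitotic cyclins, CDK1 and its regulators 8 fell and 0 were called higher, with a median of -1.31. CKS2, a small CDK1 subunit, had 32.8 and 31.2 FPKM in shDUSP23, against 116.4 and 127.9 FPKM in shMock (log2 fold change -1.91, SE 0.12, adjusted p = 3.12e-05), and CCNB1, cyclin B1, fell by 2.01. Of 14 tested genes of the MuvB, B-Myb, FOXM1 and E2F regulators 6 fell and 2 were called higher, with a median of -0.53. RBBP4, a histone-binding MuvB subunit, and MYBL2, the B-Myb factor, fell by 1.25 and 1.65. LIN37 and LIN52, MuvB subunits, were higher, with 26.9 and 34.8 FPKM (LIN37) and 11.8 and 9.53 FPKM (LIN52) in shDUSP23, against 15.0 and 16.6 FPKM and 6.02 and 6.51 FPKM in shMock (log2 fold changes 0.94 and 0.71, adjusted p = 0.00221 and 0.014). LIN52 lost its call without shMock 1 or shMock 2 (adjusted p = 0.0906 and 0.0658) and with protein-coding transcripts alone (0.42, adjusted p = 0.155). LIN54, the MuvB subunit that reads the CHR, was not called (log2 fold change 0.37, adjusted p = 0.177). E2F7 lay under the expression filter.

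**Figure D5:**
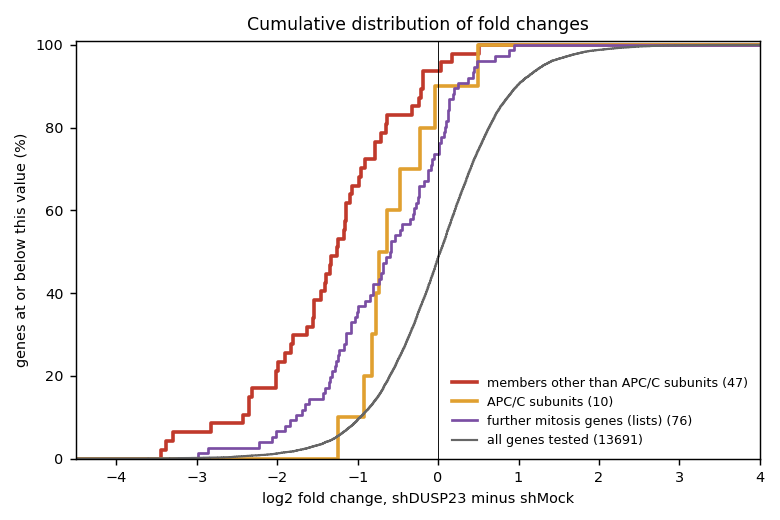
Cumulative share of genes (percent) at or below each log2 fold change (shDUSP23 minus shMock) for 47 members other than ANAPC subunits, 10 ANAPC subunits, 76 further mitosis genes and all 13691 tested genes. The members' curve reaches its middle at -1.26, the ANAPC subunits at -0.69, the further mitosis genes at -0.59 and all tested genes at 0.03.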

How the data were processed

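The deposited values are FPKM for each Ensembl transcript in each library. STAR 2.7.1a, DESeq2 1.32.0 and GRCh38 are named in the submitters' processing notes with no role, and the sources used here give no quantifier, annotation release or strandedness. Values were summed per gene ID, and genes averaging 1 FPKM or more over the 4 libraries were fitted as log2(FPKM + 0.5) with limma 3.58.1 (R 4.3.3, eBayes with trend, no covariates, two-sided, Benjamini-Hochberg adjustment over 13691 genes, called at 0.05). The members, gene lists and tests were chosen with earlier results of these data known. Named with full values were, in each role, the 3 members with the smallest p, those called higher and those listed at 0, and in each list the 2 genes with the smallest p and those called higher. Other list genes and ratios between genes were picked after their values were seen. GENCODE 29 (GRCh38) supplied gene coordinates, and length and GC content for 93.6% of transcripts, and RefSeq (GRCh38.p14) the promoters. Totals of fragments came from FPKM steps in 4981 single-transcript genes, where 82.9% and 84.9% (shDUSP23) and 83.1% and 82.5% (shMock) of values up to 50 fragments were whole within 0.1 fragment. They cover counting error only, and no count model was run. There were 17 alternatives: pseudocounts of 0.1 and 1 FPKM, no filter, a filter at 5 FPKM, median-ratio, equal-sum and quantile scaling, no trend, robust eBayes, protein-coding transcripts alone, correction for a spline of GC content and length, the replicate number as a block with and without it, and leaving out each library. The procedure was tested on simulated data. Tables were handled with pandas 2.3.3 under Python 3.11.15 and plotted with matplotlib 3.10.9.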

Additional observations from a re-analysis of the deposited data

How the results depend on the processing

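Of the 45 members called lower, 26 were called in every alternative that tested them. For CDCA8, CENPE, CENPJ, NDC80 and SPC25 these were 16 of the 17, because they lay under the filter at 5 FPKM. Over members and alternatives, 861 of 954 values kept their direction and side of the threshold, 59 lost the call, 9 gained it and 25 turned. The members called lower numbered 32 to 46 with 1 library left out, those other than ANAPC subunits 27 to 39, the ANAPC subunits 4 to 7, the list genes called lower 28 to 39, the members called higher 0 to 2 and the list genes called higher 1 to 5, and DUSP23 ranged between -3.91 and -3.37. With shMock left at 1 library, that library is assumed to vary like the shDUSP23 ones. The count of members called higher (2) was 0 with median-ratio rescaling, without trend and with protein-coding transcripts alone, and 1 after GC content and length correction with or without the replicate block. ANAPC subunits called lower (6) numbered 3 with equal sums. List genes called higher (3) numbered 13 of 77 with equal sums, where 5374 of all 14951 tested genes were called higher. They numbered 5 with a mean of at least 5 FPKM (2567 of all 9876) and after GC content and length correction (2955 of 13563). They were also 5 with the replicate block, with that correction (3169 of 13563) or without it (3398 of 13691). The values that turned belonged to members that were not called. With equal sums they were 0.13 for CENPX, CENPQ and CENPS, 0.02 for CENPP, 0.10 for ANAPC13 and 0.29 for ANAPC16. After GC content and length correction, with or without the replicate block, they were 0.24 for CENPQ, 0.06 for CENPS, 0.20 for ANAPC13 and 0.30 for ANAPC16. CENPL turned to -0.03 with median-ratio rescaling and with protein-coding transcripts alone and to -0.05 with quantile normalization, which gave 0.06 for ANAPC16, and ESPL1 turned to 0.10 with protein-coding transcripts alone. With 1 library left out, CENPC ranged between -0.02 and 0.36, CENPL between -0.06 and 0.12, ANAPC16 between -0.13 and 0.05 and CENPS between -0.48 and 0.10. The cause of these changes was not tested.

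The labels do not say whether libraries of the same number were handled together. Deviations of same-numbered libraries from their group means correlated at 0.053 over all tested genes. That value does not settle the question, and with the replicate number as a block 6707 of all tested genes were called, against 6202 without it. With the replicate block 46 members were called lower, against 24.2% of all tested genes, and 2 higher, against 3398 of all 13691 tested genes. Depth limits the lowest members, since 3 fragments of CENPM correspond to 0.115 and 0.0735 FPKM in shDUSP23 and 0.1459 and 0.1231 FPKM in shMock.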
